A study of Mus musculus with 44 samples.

Results

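The NR4A and EGR families of immediate early transcription factors were examined in ribosome-bound mRNA of hippocampal neurons from mice that exercised early in life. The members were taken by gene symbol: the 3 NR4A genes (Nr4a1, Nr4a2 and Nr4a3) and the 4 EGR genes (Egr1, Egr2, Egr3 and Egr4), 7 of the 55335 genes in the deposited table. All mice were male and of the Emx1-NuTRAP genotype, from a cross of Emx1-IRES-Cre with NuTRAP mice, so that cells with a history of Emx1 expression, mostly excitatory neurons of the forebrain and some glia, carry a tagged ribosomal protein. Early-life exercise (ELE) mice were housed with a wheel between postnatal days 21 and 41, sedentary mice were given no wheel, and hippocampi were collected on the day after. The mRNA came from simultaneous isolation of transcripts and nuclei (SIT) from both hippocampi of 4 ELE and 4 sedentary mice, or from separate isolation of the left hippocampus of 3 ELE and 3 sedentary mice and of the right hippocampus of 3 other ELE and 3 other sedentary mice. Each of the 20 libraries was from a different mouse and is named by its mouse number.

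Immediate early genes are transcribed within minutes of neuronal activity without the need for new protein, because the factors that switch them on, among them CREB at cAMP response elements and SRF at CArG boxes, are already in place. The NR4A proteins are orphan nuclear receptors and the EGR proteins are zinc-finger factors, and both in turn switch on slower genes. In the hippocampus, Egr1 (also called Zif268) and the NR4A receptors are known for their part in synaptic plasticity and in the consolidation of long-term memory.

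The stretches before the start sites of the members are shown because a 5-base core of the cAMP response element was found in at least 1 window of each of the genes shown. Sequences are from RefSeq (GRCm38.p6), 250 bases ending at the base before the start site, written 5′ to 3′ on the strand of the gene, and are given for 5 of the 7 genes. Those of Egr1 and Egr3 were not analysed here. Capitals mark the core TGACG (or CGTCA, its reverse), the EGR site GCGGGGGCG on either strand, and the CArG box.
Nr4a1, chr15:101266596-101266845, plus strand: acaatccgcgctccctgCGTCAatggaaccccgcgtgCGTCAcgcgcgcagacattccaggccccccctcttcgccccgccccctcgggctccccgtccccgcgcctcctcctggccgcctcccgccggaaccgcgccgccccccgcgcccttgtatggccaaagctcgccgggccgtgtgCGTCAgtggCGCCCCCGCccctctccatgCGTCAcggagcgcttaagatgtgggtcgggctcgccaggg
Nr4a2, chr2:57124004-57124253, minus strand: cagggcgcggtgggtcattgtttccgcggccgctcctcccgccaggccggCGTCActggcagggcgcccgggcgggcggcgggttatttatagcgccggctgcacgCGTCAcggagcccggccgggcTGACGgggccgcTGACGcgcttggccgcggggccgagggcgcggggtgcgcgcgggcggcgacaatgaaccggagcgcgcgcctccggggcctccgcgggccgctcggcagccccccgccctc
Nr4a3, chr4:48045055-48045304, plus strand: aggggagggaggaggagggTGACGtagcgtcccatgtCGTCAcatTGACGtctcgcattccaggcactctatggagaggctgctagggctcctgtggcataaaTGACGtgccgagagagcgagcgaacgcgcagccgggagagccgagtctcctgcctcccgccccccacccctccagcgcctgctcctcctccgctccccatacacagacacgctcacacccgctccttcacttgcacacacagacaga
Egr2, chr10:67537619-67537868, plus strand: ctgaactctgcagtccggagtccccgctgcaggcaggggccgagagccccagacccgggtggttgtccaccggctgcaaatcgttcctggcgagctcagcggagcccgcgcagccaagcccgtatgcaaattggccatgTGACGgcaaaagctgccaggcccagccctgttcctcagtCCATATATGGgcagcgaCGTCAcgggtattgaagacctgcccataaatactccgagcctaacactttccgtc
Egr4, chr6:85513590-85513839, minus strand: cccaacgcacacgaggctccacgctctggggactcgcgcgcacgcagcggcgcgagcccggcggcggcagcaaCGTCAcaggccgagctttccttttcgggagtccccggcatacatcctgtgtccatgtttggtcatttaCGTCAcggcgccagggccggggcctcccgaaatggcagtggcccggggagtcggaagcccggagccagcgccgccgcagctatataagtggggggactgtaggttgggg
Each NR4A gene held 4 copies of TGACG on either strand. Of the 32851 windows of the same length in the table, from 27025 genes, 17.8% held at least 1 copy and 0.137% held 4 or more. All such shares are over windows not matched for base composition, and the core holds a CG. The Nr4a1, Nr4a2 and Nr4a3 windows were 74.4%, 80% and 63.6% G or C. Egr4 and the Egr2 window shown each held 2 copies, and 3.90% of all windows held 2 or more. The Egr2 window also held a CArG box, present in 1.47% of windows, and is the third of 5 start sites listed for Egr2, shown because it held both motifs. The third, the fourth and the fifth overlap and held 2 copies of TGACG each, the second held a CArG box and no TGACG, and the first held neither. The Nr4a1 window held 1 copy of GCGGGGGCG, the site to which EGR proteins bind, found in 2.57% of windows. The full palindrome TGACGTCA (1.55% of windows), the EGR site GCGTGGGCG (0.536%) and the NR4A response element AAAGGTCA (1.34%) were in none of these windows. A match describes the letters only and is not evidence that a factor was bound.

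Between 45895097 and 65767802 read pairs were counted on genes per library, so that even the lowest total for a member, 11 read pairs of Egr2, was above the 3 counts taken as a floor. Summed levels of 5 markers of excitatory neurons were between 6520 and 9976 CPM (counts scaled to library size) in all 20 libraries, against 1.14 to 26.6 CPM for 5 endothelial markers. Astrocyte markers (1510 to 5071 CPM) and oligodendrocyte markers (1879 to 4338 CPM) were also well above the latter. Of the 8 SIT libraries, 3 stood apart. NT7.2.3 and NT7.2.4, both sedentary, had 8.64% and 9.64% of their counts in mitochondrial genes, against 0.523% or less in the other 18, and had 817 and 854 CPM in 6 interneuron markers, where the others had between 40.5 and 108 CPM. The ELE mouse NT6.304 differed in the genes described here. The paper that reported the data left these 3 out of its SIT comparison, so SIT results are given for the 5 libraries it compared (3 ELE, 2 sedentary) and for all 8. Among SIT libraries, both TG7.4 mice had exercised and neither NT7.2 mouse had, and for these mice the effect of exercise cannot be told apart from whatever that first part of the number stands for.

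All of the genes but Egr2 were well expressed. Levels are given as CPM with TMM scaling over the 20 libraries, and between genes as CPM per kilobase of exon. Over the 10 sedentary libraries, Egr1 (35.5 ± 8.01 CPM per kilobase, SD, n = 10) and Egr3 (34.1 ± 4.08) were highest, and Egr1 exceeded Egr3 in 5 of the 10, so that their order was not resolved. Nr4a3 (18.9 ± 2.06), Egr4 (16.6 ± 3.56), Nr4a2 (15.7 ± 2.01) and Nr4a1 (12.3 ± 1.57) followed. Every sedentary library had more Egr3 than Nr4a3 and more Nr4a2 than Nr4a1. Nr4a3 exceeded Egr4 in 8 of the 10, and Egr4 exceeded Nr4a2 in 6. The ranges of neighbours among these last 4 genes overlapped. Egr2 was at 0.343 ± 0.223 CPM per kilobase, below every other member in all 10. In GRCm38 coordinates, Nr4a1 lies at chr15:101254269-101274795, Nr4a2 at chr2:57106830-57124003, Nr4a3 at chr4:48045153-48086447, Egr2 at chr10:67535475-67542188, Egr3 at chr14:70077203-70082614 and Egr4 at chr6:85511121-85513589. All 7 are protein-coding, and the counts cover all their annotated exons. These are bulk libraries, in which fewer cells with a transcript and less of it per cell cannot be told apart.

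**Figure D1:**
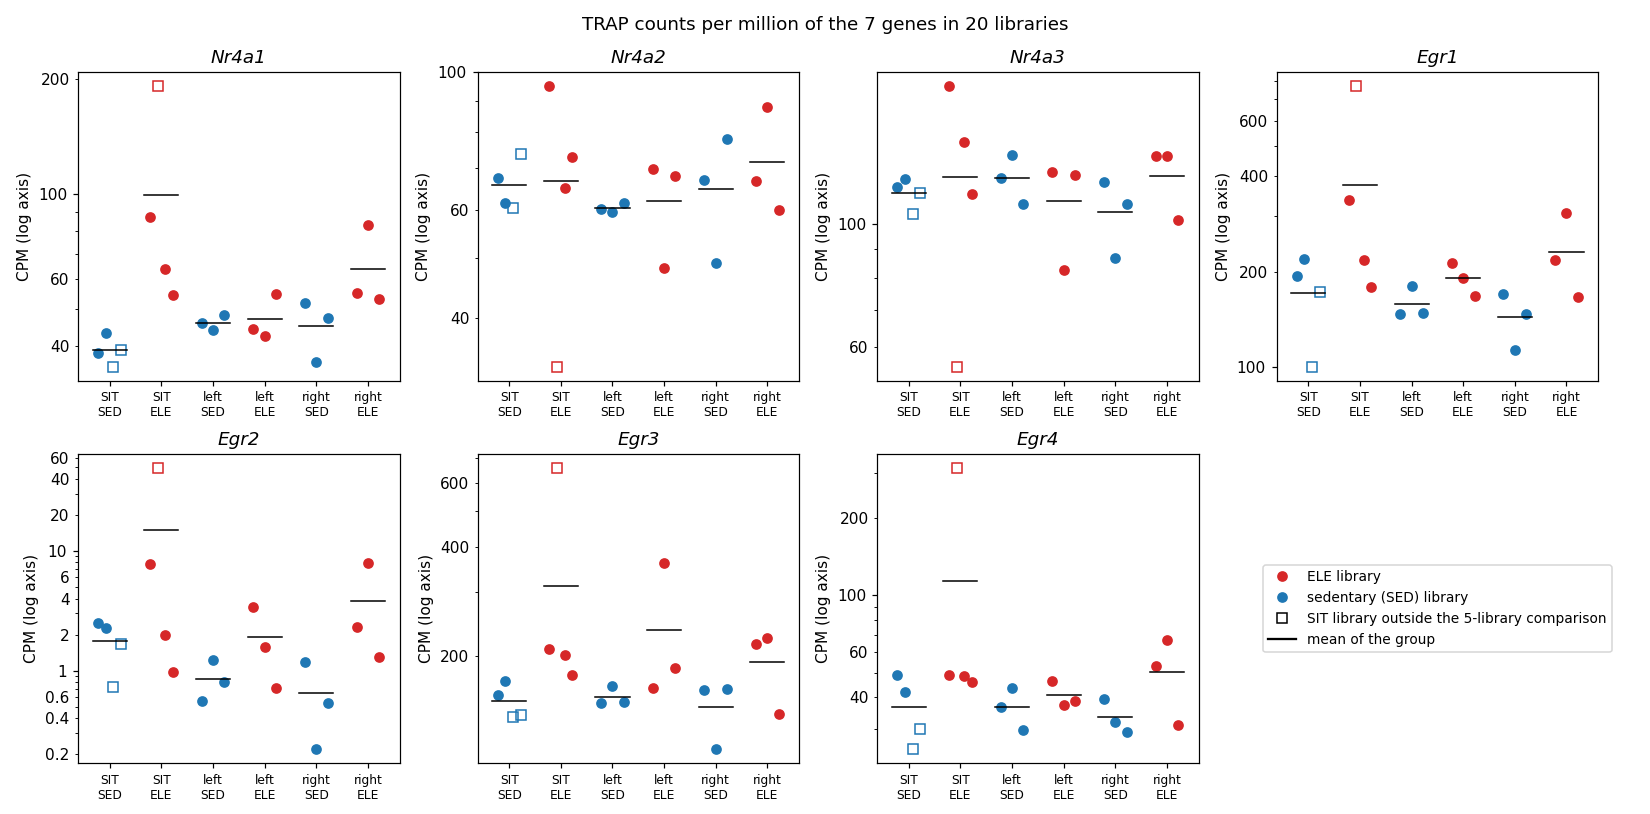
CPM of each gene (log axis, a separate scale per gene) in the 20 libraries, by isolation and exercise; points are libraries, open squares the 3 SIT libraries outside the 5-library comparison, and lines group means. NT6.304, the open square in SIT ELE, is the highest of 20 for Nr4a1 and the 4 EGR genes and the lowest for Nr4a2 and Nr4a3.

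To ask whether ELE changed these genes, ELE and sedentary libraries were compared within each isolation by edgeR (quasi-likelihood test). The study's criteria were kept: a gene was called where its p before adjustment was below 0.05 and its fold change exceeded 1.31 in either direction. In the 5-library SIT comparison, Nr4a1 rose and the other 6 members were not called. Nr4a1 was at 87.4, 63.8 and 54.5 CPM in the ELE mice NT6.303, TG7.4.1 and TG7.4.2, and at 38.5 and 43.3 CPM in the sedentary mice NT6.305 and NT6.306. Every ELE value was above both sedentary values, and the mean was 68.5 ± 16.9 CPM (SD, n = 3) against 40.9 ± 3.44 (SD, n = 2). The log2 fold change was 0.74 ± 0.18 (SE; edgeR adjusted p = 0.905), and Nr4a1 ranked 32 of 18238 genes by p. Of all genes tested, 1.54% were called higher, and 1 of the 7 members was.

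Egr3 also had no overlap in these 5 libraries, at 209, 201 and 178 CPM in ELE and 156 and 172 CPM in sedentary mice, but its log2 fold change of 0.26 ± 0.10 (edgeR adjusted p = 0.905, rank 649 by p) was below the size required. Nr4a1 and Egr3 were thus 2 of 7 members with every ELE library above every sedentary one, where 10.4% of all genes were. For Nr4a2 (65.1 to 95.1 CPM in ELE, 61.4 and 67.4 CPM in sedentary mice), Nr4a3 (113 to 177, and 116 and 120 CPM), Egr4 (46.1 to 48.7, and 42.1 and 48.9 CPM), Egr1 and Egr2 the groups overlapped. Egr1 and Egr2 were high in NT6.303 (336 and 7.72 CPM) and not in the other 2 ELE mice, which had 217 and 179 CPM of Egr1 and 1.97 and 0.982 CPM of Egr2, against 193 and 220 CPM of Egr1 and 2.48 and 2.26 CPM of Egr2 in sedentary mice. Without NT6.303, the log2 fold changes of Egr1 and Egr2 were -0.06 and -0.68, and Nr4a1 was still called. Leaving out the less affected ELE mice added calls, of Nr4a2 (0.39) without TG7.4.1 and of Nr4a3 (0.42) and Egr1 (0.42) without TG7.4.2. A two-sided exact permutation test on log2 CPM cannot go below p = 0.2 with 3 and 2 libraries, and it gave this value for Nr4a1 and for Egr3. With CPM on total counts, without TMM scaling, Egr3 overlapped (exact permutation p = 0.4) and Nr4a1 did not. Markers of blood and of choroid plexus moved with exercise in the same 5 libraries: 5 red-cell markers summed to 3.88 to 12.4 CPM in ELE and 26.7 to 30.7 CPM in sedentary mice, 4 of them called lower, and 5 choroid plexus markers to 128 to 576 CPM and 584 to 669 CPM, 3 of them called lower. Dentate granule cell markers summed to 762 to 973 CPM in ELE and 673 to 784 CPM in sedentary mice, 2 of 5 called higher. Their part in the result was not tested.

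With all 8 SIT libraries, Nr4a1 and all 4 EGR genes were called higher in ELE mice, 5 of 7 members against 2.29% of 17531 genes, and Nr4a2 and Nr4a3 were not. The log2 fold changes were 1.36 ± 0.35 for Nr4a1 (edgeR adjusted p = 0.403), 1.15 ± 0.43 for Egr1, 3.08 ± 1.04 for Egr2, 1.06 ± 0.38 for Egr3 and 1.66 ± 0.61 for Egr4, and 0.03 ± 0.25 for Nr4a2 and 0.11 ± 0.27 for Nr4a3. Nr4a1 (35.4 to 43.3 CPM in 4 sedentary and 54.5 to 192 CPM in 4 ELE mice) and Egr3 (136 to 172 CPM and 178 to 657 CPM) again did not overlap, which held for 1.90% of all genes, and both reached the smallest p of the exact permutation test, 0.0286. With CPM on total counts, without TMM scaling, Egr3 overlapped (exact permutation p = 0.0571) and Nr4a1 did not. For Egr1, Egr2 and Egr4 the ranges overlapped, and with TMM scaling the exact permutation p was 0.143, 0.286 and 0.114. The larger values rested on NT6.304. Without it, over 7 libraries, Nr4a1 (0.82 ± 0.17; edgeR adjusted p = 0.547) and Egr3 (0.39 ± 0.12; edgeR adjusted p = 0.547) were called, and Egr1 (0.51 ± 0.27), Egr2 (1.001 ± 0.65) and Egr4 (0.39 ± 0.22) were not. Without the NT7.2 pair and with NT6.304, Nr4a1 alone was called, at 1.29 ± 0.48, while Egr1 (0.87 ± 0.53), Egr2 (2.66 ± 1.43), Egr3 (0.93 ± 0.52) and Egr4 (1.34 ± 0.82) had large values with wide errors. These 2 selections of libraries were added after the values had been seen. With all 8 libraries, 6 of 6 interneuron, 5 of 5 microglial, 5 of 5 endothelial, 5 of 5 red-cell, 4 of 5 choroid plexus and 3 of 5 oligodendrocyte markers were called lower in ELE mice, and their part in these results was not tested.

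**Figure D2:**
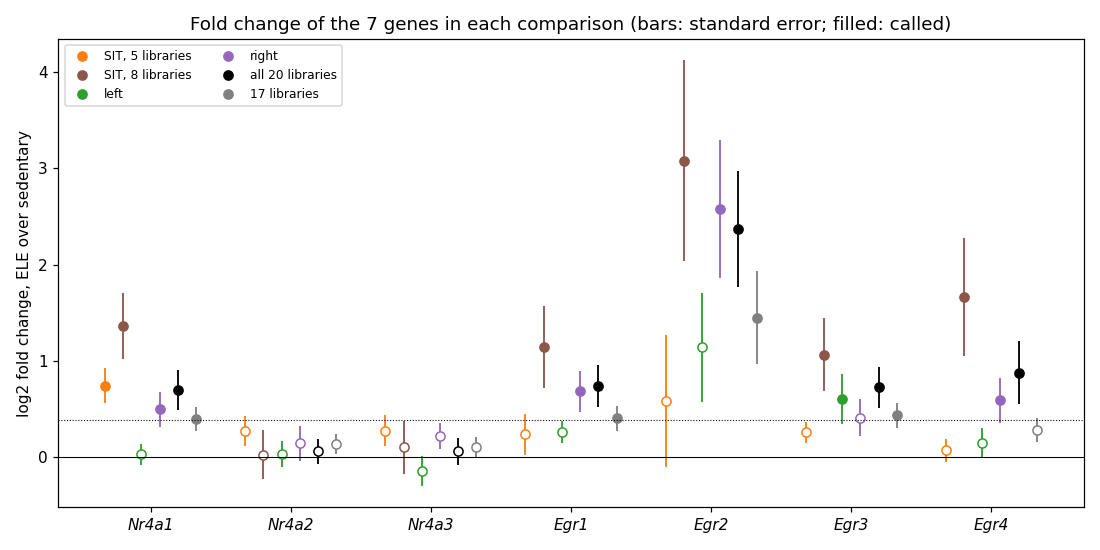
Log2 fold change of ELE over sedentary mice for each gene (vertical axis) in 6 comparisons, with bars for the standard error; filled points are called, and the dotted line is at the fold change of 1.31 that a call requires. Nr4a2 and Nr4a3 are not called in any of the 6, and Egr2 has the longest bars.

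In the right hippocampus, 4 of the 7 members rose with ELE, Egr2, Egr1, Egr4 and Nr4a1, where 0.746% of 17570 genes were called higher. Egr2, which also acts in myelination, was at 2.33, 7.85 and 1.29 CPM in the ELE mice TG7.3.1, TG9.1.3 and TG9.2.1 and at 1.18, 0.222 and 0.539 CPM in the sedentary mice TG7.3.3, TG9.1.1 and TG9.2.3. The groups did not overlap, but TG9.2.1 was barely above TG7.3.3 (73 read pairs against 54), a gap within counting error. The log2 fold change was 2.58 ± 0.72 (edgeR adjusted p = 0.9998, rank 42 by p). Nr4a1 was at 55.1, 83.2 and 53.3 CPM in the same ELE mice and at 51.9, 36.5 and 47.6 CPM in the sedentary mice, again without overlap, at 0.50 ± 0.18. For Nr4a1 too, TG9.2.1 (53.3 CPM) was barely above TG7.3.3 (51.9 CPM). Egr2 and Nr4a1 were 2 of 7 members without overlap, against 3.80% of genes. Each reached the smallest exact permutation p that 3 and 3 libraries allow, 0.1.

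Egr1 was at 217, 307 and 166 CPM in right ELE and 170, 113 and 147 CPM in right sedentary mice, with a log2 fold change of 0.69 ± 0.21 (rank 66 by p). TG9.2.1 was below TG7.3.3 for Egr1. Egr4 was at 53.0, 67.1 and 31.1 CPM against 39.3, 32.1 and 29.2 CPM, and rose by 0.59 ± 0.24 on the log2 scale. Egr3, at 216, 225 and 139 CPM against 162, 111 and 163 CPM, had a log2 fold change of 0.41 ± 0.19 and was not called by edgeR. It was called by DESeq2 (0.41) and by edgeR without a filter on low counts (0.41), which made 5 of 7 members. Those 2 fits called 365 of 18040 and 715 of 26947 genes in either direction. In all of these EGR genes TG7.3.1 and TG9.1.3 were the high ELE libraries and TG9.2.1 lay within or next to the sedentary range. Nr4a2 (0.15 ± 0.18) and Nr4a3 (0.22 ± 0.14) were not called. Without TG9.1.3, Egr1 (0.42 ± 0.18) and Egr2 (1.49 ± 0.63) remained called and Nr4a1 (0.26 ± 0.15) and Egr4 (0.33 ± 0.22) did not. The same 2 genes remained called without the sedentary mouse TG9.1.1, the lowest of the 6 for 6 members, with Nr4a1 at 0.36 and Egr4 at 0.56. Egr4 also lost its call without TG7.3.1 (0.55) or TG9.2.3 (0.50), and without TG9.2.1 Egr3 was called (0.60). Choroid plexus markers summed to 17.3 to 42.7 CPM in right ELE and 35.1 to 1156 CPM in right sedentary mice, with 4 of 4 tested called lower, and red-cell markers to 3.95 to 4.87 CPM and 4.90 to 11.4 CPM, with 3 of 4 called lower. Astrocyte markers summed to 5071 CPM in TG9.1.1 and 4480 CPM in TG9.2.1, against 2577 to 2735 CPM in the other 4 right libraries. Their part in the result was not tested.

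In the left hippocampus, Egr3 alone was called, 1 of 7 members where 1.10% of 17750 genes were called higher, and TG9.1.4 had the one value apart from the rest. Egr3 was at 164, 360 and 185 CPM in the ELE mice TG7.3.2, TG9.1.4 and TG9.2.2 and at 149, 166 and 150 CPM in the sedentary mice TG7.3.4, TG9.1.2 and TG9.2.4. The log2 fold change was 0.61 ± 0.26 (edgeR adjusted p = 0.960), and without TG9.1.4 it was 0.17 ± 0.08 and not called. The call was also lost without TG7.3.4 (0.58), TG9.2.4 (0.58) or TG9.1.2 (0.66). The groups overlapped for each of the 7 members, where 5.38% of all genes had every ELE library above every sedentary one. Egr1 (0.26 ± 0.11) had too small a fold change for a call, and Egr2 (1.14 ± 0.57) too large a p. Egr2 was at 3.39, 1.58 and 0.717 CPM in ELE and 0.555, 1.22 and 0.797 CPM in sedentary mice, and its value was 0.41 without TG7.3.2. Without TG9.2.2 it was called, at 1.54. DESeq2 called Egr2 (1.15) and not Egr3 (0.61). Nr4a1 was at 44.3, 42.5 and 54.8 CPM in ELE and 46.0, 44.0 and 48.3 CPM in sedentary mice, with a difference of 0.03 ± 0.11 in log2. Nr4a3, at 124, 82.7 and 122 CPM against 121, 133 and 108 CPM, was the only member with a negative value, -0.14 ± 0.16.

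The difference between the hemispheres was tested itself, as an interaction of exercise with hemisphere over the 12 separately isolated libraries. It was called for 0 of the 7 members, where 2.20% of 18810 genes were called in either direction. With edgeR, 0 members had an unadjusted p under 0.05. DESeq2 also gave 0, and edgeR without a filter on low counts gave 4. The left minus right differences in log2 fold change were -0.47 ± 0.24 for Nr4a1 (edgeR adjusted p = 1), -1.43 ± 1.01 for Egr2 and 0.19 ± 0.37 for Egr3. The calls on the right and not on the left were not shown to differ between the hemispheres.

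Over all 20 libraries, with isolation and hemisphere as a term in the fit, Nr4a1 and the 4 EGR genes were higher in ELE mice and Nr4a2 and Nr4a3 were not called, 5 of 7 members where 1.21% of 19935 genes were called higher. Egr2 rose most, by 2.37 ± 0.60 (edgeR adjusted p = 0.324, rank 40 by p), and Egr4 (0.88 ± 0.32), Egr1 (0.74 ± 0.22), Egr3 (0.73 ± 0.21) and Nr4a1 (0.70 ± 0.21) followed. Nr4a2 and Nr4a3 were both at 0.06, with standard errors of 0.13 and 0.14. The exact permutation test within isolation and hemisphere, over 28000 arrangements of the labels, gave two-sided p-values of 0.00193 for Nr4a1, 0.00243 for Egr3, 0.00293 for Egr1, 0.00979 for Egr2 and 0.0148 for Egr4, and 0.835 for Nr4a2 and 0.935 for Nr4a3. The members were 7 of the many genes that could have been tested, and edgeR gave 0 of them an adjusted p under 0.05, with 5 at an unadjusted p under 0.05. DESeq2 gave 1, Egr2, with an adjusted p of 0.045. In the 5-library SIT comparison, DESeq2 gave 1, Nr4a1 (adjusted p = 0.0437), where edgeR gave 0 of the 2 with an unadjusted p under 0.05. Without a filter on low counts, edgeR gave Nr4a1 an adjusted p of 3.72e-05 in that comparison, and Egr1 and Egr2 adjusted p-values under 0.05 on the right, the lower being 0.00331. Choroid plexus (4 of 5), red-cell (5 of 5) and endothelial markers (5 of 5) were called lower in ELE mice over the 20 libraries, and their part in these results was not tested.

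Without NT6.304, the fold changes of Nr4a1 and the EGR genes were smaller, and those of all 7 members were still above 0. Over the other 19 libraries, the values were 0.47 ± 0.12 for Nr4a1, 0.49 ± 0.15 for Egr1, 1.53 ± 0.46 for Egr2 and 0.46 ± 0.13 for Egr3, which were called, 4 of 7 members against 0.736% of 19845 genes. Egr4 (0.38 ± 0.14) was just below the size required. Over the 17 libraries without all 3 that the paper left out, the same 4 genes were called, against 0.924% of 20345 genes, with Nr4a1 at 0.40 ± 0.12, Egr1 at 0.41 ± 0.13, Egr2 at 1.45 ± 0.48 and Egr3 at 0.44 ± 0.13. The exact permutation p over 4000 arrangements was then 0.0115 for Egr3, 0.0135 for Nr4a1, 0.025 for Egr1, 0.074 for Egr2 and 0.085 for Egr4. Choroid plexus (4 of 5) and red-cell markers (3 of 5) were called lower in ELE mice over the 17 libraries, and with them endothelial markers (3 of 5) over the 19, and their part in these results was not tested. The median log2 fold change of the 7 members was 0.40 in these 17 libraries and that of all genes tested was 0.00.

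The library of ELE mouse NT6.304 divided the members into a raised and a lowered group. It had 192 CPM of Nr4a1, 772 of Egr1, 48.9 of Egr2, 657 of Egr3 and 314 of Egr4, the highest of 20 libraries for each. Against the mean of the other 3 SIT ELE libraries these were 2.81, 3.16, 13.8, 3.35 and 6.56 times higher. Nr4a2, at 33.4 CPM, and Nr4a3, at 55.3 CPM, were instead the lowest of 20, at 0.430 and 0.386 times that mean, while the other 19 libraries had 48.2 to 95.1 CPM of Nr4a2 and 82.7 to 177 CPM of Nr4a3. Of 24 other primary response genes, such as the AP-1 component Fos (614 CPM, against 4.96 to 34.5 in the other 19) and Npas4 (137 CPM, against 0.655 to 10.8), 21 were highest of 20 in this library. All 18 of the later activity-induced genes were, among them Nptx2, which clusters AMPA receptors (881 CPM, against 62.4 to 315), and Bdnf, the neurotrophin (237 CPM, against 56.7 to 115). Of 21 upstream regulators, 3 were highest and 4 lowest. The share of all genes at either extreme in this library was not counted, so these counts lack a background. The same library had 544 CPM in 5 dentate granule cell markers, against 762 to 973 CPM in the other SIT ELE libraries, and 108 CPM in 6 interneuron markers, against 63.5 to 76.2 CPM. Its astrocyte markers (3802 CPM, against 1684 to 3174 CPM) and microglial markers (8.86 CPM, against 2.94 to 5.22 CPM) were also above the other SIT ELE libraries, and the part of these 4 cell types in its values was not tested. What was done with this mouse beyond its group is not given in the sources used here.

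**Figure D3:**
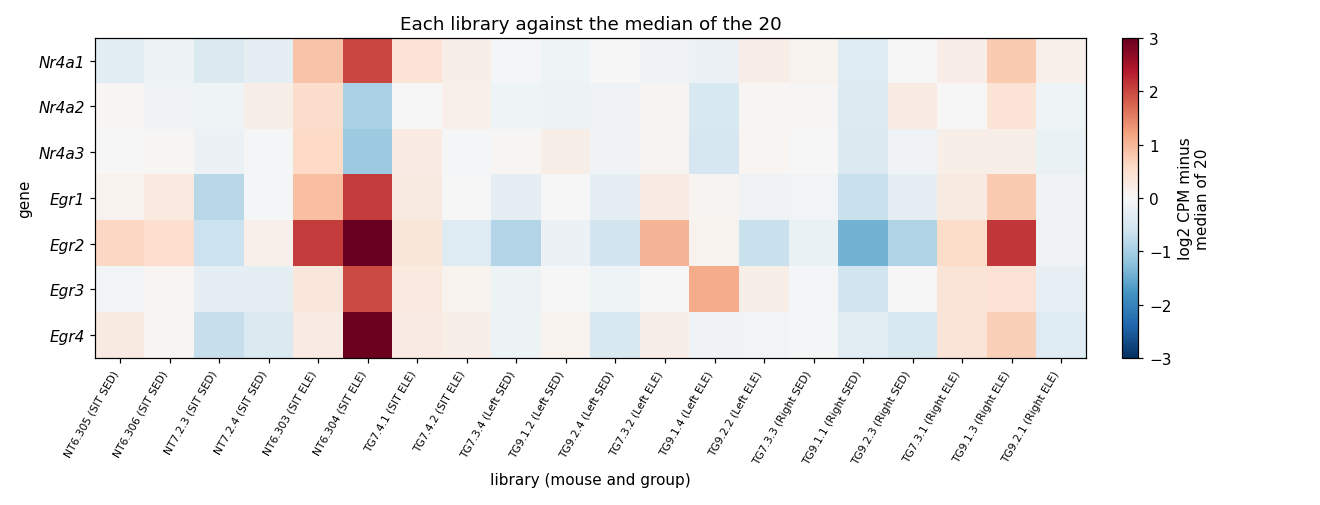
Log2 CPM of each gene in each library minus the median of the 20 libraries, in log2 units (colours end at -3 and 3, and NT6.304 lies beyond 3 for Egr2). NT6.304 is red for Nr4a1 and the EGR genes and blue for Nr4a2 and Nr4a3, and the left ELE library TG9.1.4 is red for Egr3 and pale blue for Nr4a2 and Nr4a3.

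The left ELE mouse TG9.1.4 had part of the same division. It was highest of the remaining 19 libraries for Egr3 (360 CPM) and lowest for Nr4a2 (48.2 CPM) and Nr4a3 (82.7 CPM), while its Nr4a1 (42.5 CPM), Egr1 (191 CPM), Egr2 (1.58 CPM) and Egr4 (37.5 CPM) were within the range of the sedentary libraries. It was also highest of the 19 for 10 of the 24 other primary response genes and for 12 of the 18 later genes, with 36.8 CPM of Inhba, an activin subunit, and 120 CPM of Sorcs3, a sorting receptor. The share of all genes highest in TG9.1.4 was not counted, and its Npas4 was at 1.39 CPM. Its astrocyte markers summed to 5017 CPM, against 2241 to 3119 CPM in the other left libraries, and its microglial markers to 6.67 CPM, against 2.19 to 3.94 CPM, and their part in its values was not tested. The SIT ELE mouse NT6.303 differed from both: it was highest of the 19 for Nr4a1, Nr4a2, Nr4a3 and Egr1 together, and the right ELE mouse TG9.1.3 was highest for Egr2 and Egr4. The sedentary right library TG9.1.1 was next to TG9.1.4 for Nr4a2 (49.2 CPM) and Nr4a3 (86.9 CPM), with 20.7 CPM of Inhba, 100.5 CPM of Bdnf, 20.2 CPM of Trib1 and 5071 CPM in astrocyte markers, but its Egr3 (111 CPM) was the lowest of 20. Low Nr4a2 and Nr4a3 were thus seen in both exercise groups. These mice were singled out after their values had been seen.

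Across libraries the 4 EGR genes were positively correlated, and the sign of their correlation with Nr4a2 and Nr4a3 depended on NT6.304. Over 20 libraries, Pearson's r of log2 CPM was between 0.79 and 0.96 for the 6 pairs of EGR genes, and Spearman's rho between 0.60 and 0.92. All 6 had an adjusted permutation p under 0.05 for both (100000 resamples, two-sided, Benjamini-Hochberg over 21 pairs). The closest pair was Egr1 with Egr2, at r = 0.96 and rho = 0.92 (permutation p = 1e-05 for each, the smallest the resamples can give, adjusted p = 5.25e-05 and 0.000105), and r was 0.89 without the 2 libraries farthest from the median of Egr1, NT6.304 and NT6.303. Nr4a1 correlated with each EGR gene at r between 0.79 and 0.90. Nr4a2 and Nr4a3 correlated with each other at r = 0.87 (permutation p = 3e-05, adjusted p = 0.000126) and rho = 0.50 (permutation p = 0.0264, adjusted p = 0.0554). Their r with Nr4a1 and the EGR genes was negative in all 10 pairs, from -0.49 to -0.20, while rho was positive in all 10, from 0.10 to 0.48, and 0 of these r had an adjusted permutation p under 0.05.

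Without NT6.304, r was above 0 for all 21 pairs and its median was 0.64. The EGR pairs then ranged from 0.49 (Egr2 with Egr3) to 0.92 and Nr4a1 with the EGR genes from 0.46 (Egr3, adjusted permutation p = 0.0628) to 0.77, so the size of several of these values also rested on that library. Over the 17 libraries, Egr3 had r = 0.44 with Egr4 (adjusted permutation p = 0.0858), r = 0.49 with Egr2 (adjusted permutation p = 0.0641) and r = 0.38 with Nr4a1 (adjusted permutation p = 0.153). For Nr4a2 with Egr1, r went from -0.21 to 0.62, and for Nr4a3 with Egr1 from -0.22 to 0.70, so the negative values rested on that library. The lowest r was that of Egr3 with Nr4a2 (r = 0.10, rho = 0.28) and with Nr4a3 (r = 0.15, rho = 0.53). In the 17 libraries, r of Egr3 with Nr4a3 was 0.10 and became 0.85 without the pair NT6.303 and TG9.1.4. After subtracting the mean of each of the 6 groups, r over the 17 libraries was between 0.31 and 0.95 for EGR pairs (median 0.56), between 0.70 and 0.77 for NR4A pairs, and between 0.01 (Nr4a3 with Egr3) and 0.78 for pairs of an NR4A with an EGR gene (median 0.59). Centred in the same way over all 20 libraries, these 12 pairs had a median of -0.32, with 4 above 0. Within the 12 separately isolated libraries, r was above 0 for 20 of 21 pairs (median 0.58), and within the 8 SIT libraries for 11 of 21 (median 0.91). All values of a library share its normalization and its dissection.

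**Figure D4:**
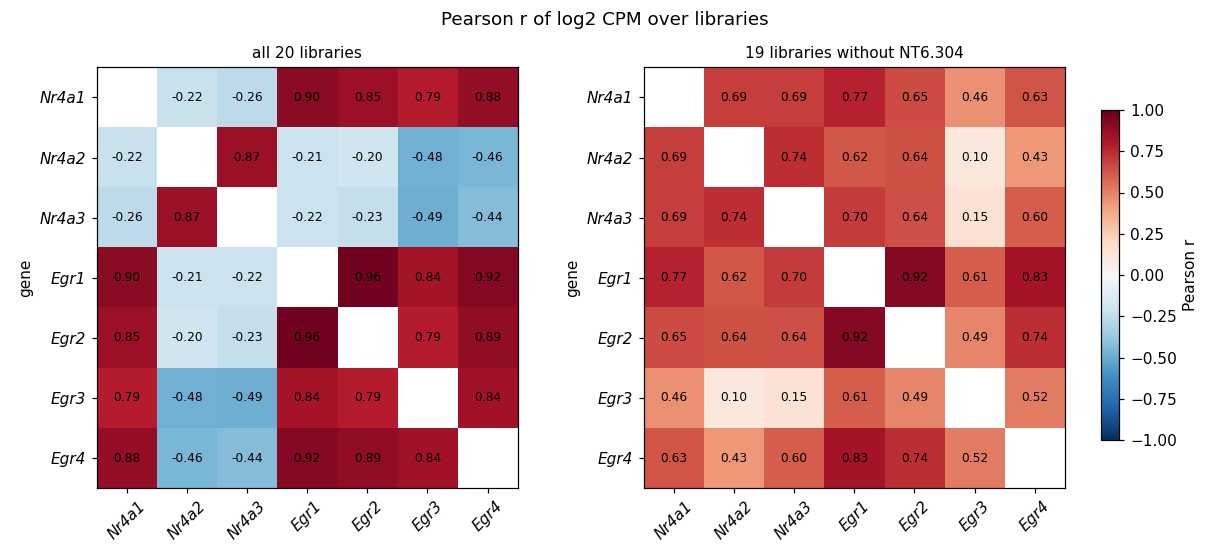
Pearson's r of log2 CPM between each pair of genes over all 20 libraries (first panel) and over the 19 without NT6.304 (second panel), with r written in each cell. The blue cells joining Nr4a2 and Nr4a3 to the other genes in the first panel, r from -0.49 to -0.20, are red in the second, where all 21 pairs are above 0.

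The genes whose pattern was most like that of the members were named by r with the mean of the 7 standardized log2 CPM, over 20 libraries and 19935 genes. The members themselves were left out of this ranking and of those by single member. The closest were Errfi1, a feedback inhibitor of the EGF receptor (r = 0.84), and Homer1, a postsynaptic scaffold with an activity-induced short form (r = 0.83). Rnf6 (0.81), Ttl, a tubulin tyrosine ligase (0.81), Prmt8 (0.80), Map6d1 (0.79), Tunar (0.79), Rasl11b (0.77), Prkrip1 (0.77) and Blmh (0.77) followed. Of these 10, Errfi1 (r = 0.76), Homer1 (0.77), Rnf6 (0.75) and Tunar (0.74) were also among the closest 10 without NT6.304. By single member, Homer1 was the closest gene to Egr1 (r = 0.92) and Egr2 (0.92), and Junb to Nr4a1 (0.88) and Egr4 (0.93). Egr3 was closest to Fmnl1 (0.93) and to Cry1, a repressor of the circadian clock (0.93). Nr4a2 was closest to 2310015A10Rik (0.87), and Nr4a3 to Hspa12a (0.90). Without NT6.304, Homer1 was still the closest of these other genes to Egr2 (0.81), Fmnl1 to Egr3 (0.83) and 2310015A10Rik to Nr4a2 (0.80). Cdh9 was then the closest to Nr4a3 (0.86) and Rnf6 to Egr1 (0.81). In place of Junb, Ttl was the closest to Nr4a1 (0.79) and Pgk1 to Egr4 (0.83). These values describe 20 libraries that share the same few high and low mice.

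Other primary response genes, the class to which the members belong, were called higher in part in every comparison. In the 5-library SIT comparison, 4 of 24 were called higher (1.54% of all genes) and 0 lower, with Junb at 0.39 ± 0.14, Tiparp at 0.44 ± 0.17 and Csrnp1 at 0.50 ± 0.21, and the median of the list was 0.24 against 0.27 for the members and 0.00 for all genes. On the left 5 of 24 were called higher (1.10% of all genes), among them Atf3 (2.52 ± 0.72), Sik1 (0.77 ± 0.26) and Gadd45g (0.93 ± 0.37), with a list median of 0.32 against 0.15 for the members. On the right 2 of 24 were called higher (0.746% of all genes), Klf10 (0.66 ± 0.17) and Fos (0.94 ± 0.42), and the medians stood in the other order, 0.06 for the list and 0.50 for the members. Without TG9.1.4, 2 of 24 were called higher on the left (216 of all 18319 genes), and the list median was 0.04. Without TG9.1.3, 1 of 24 was called higher and 1 lower on the right (140 of all 18058 genes higher), and the median was -0.08 for the list and 0.29 for the members. Over the 17 libraries, 6 of 24 were called higher (0.924% of all genes) and 0 lower, with Sik1, a kinase that restrains CREB coactivators, at 0.55 ± 0.14, Klf10 at 0.59 ± 0.17 and Atf3 at 1.21 ± 0.41. With NT6.304 and the NT7.2 pair, over 20 libraries, the count was 12 of 24 (1.21% of all genes).

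Among genes that respond later to activity, the number called depended on NT6.304. In the 5-library SIT comparison 3 of 18 were called higher (1.54% of all genes), Bdnf (0.44 ± 0.13), Dusp5, a dual-specificity phosphatase (0.46 ± 0.15), and Ptgs2 (0.43 ± 0.17). On the left 3 of 18 were (1.10% of all genes), Inhba (1.93 ± 0.74), Sorcs3 (0.93 ± 0.37) and Trib1 (0.80 ± 0.32), and 0 of 18 without TG9.1.4. On the right, Ptgs2 (0.47 ± 0.17) alone was (0.746% of all genes), and 0 of 18 without TG9.1.3. Over 20 libraries 14 of 18 were called higher (1.21% of all genes), and over the 17 it was 3 of 18 (0.924%), Inhba, Sorcs3 and Trib1, each of which was highest of 19 in TG9.1.4. The list median was 0.49 over 20 libraries and 0.26 over the 17. Over the 19 libraries without NT6.304, 2 of 18 were called higher (0.736% of all genes).

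Few of the regulators that act upstream and of the partners of the members were called. Of 21 upstream genes, including Srf, Creb1, the CRTC coactivators and the MEF2 factors, 0 were called in the 5-library SIT comparison, on the left, on the right, over 20 libraries or over 17, and the list medians lay between -0.02 and 0.08. Of all genes, 665 of 18238, 367 of 17750, 347 of 17570, 833 of 19935 and 519 of 20345 were called in either direction in these fits, so that a count of 0 of 21 is near the background. With all 8 SIT libraries, Srf (0.41 ± 0.18) was called higher and Mef2c (-0.47 ± 0.17) lower, where 1350 of 17531 genes were called. In the 7 without NT6.304, Mef2c (-0.44 ± 0.18) and Rps6ka1 (-0.69 ± 0.27) were called lower, where 981 of 18175 genes were. Within the NT6 mice, 1 of 21 was called higher, Creb1 (0.57 ± 0.17), and 1 lower, where 636 of 17738 genes were called higher and 543 lower. These counts are near the background too. Of 8 cofactors, among them Nab1 and Nab2, which bind EGR proteins and repress their activity, and the RXR receptors, with which Nr4a1 and Nr4a2 form dimers, 0 were called in those 5 fits, and Rxra (-0.48 ± 0.16) was called lower in the 8 SIT libraries, counts that are also near the background. Rxra (-0.40 ± 0.15) was also called lower in the 7 libraries, Tet1 (0.68 ± 0.22) higher within the NT6 mice and Rxrg (-0.79 ± 0.23) lower on the right without TG9.1.3. Each was 1 of 8, where 981 of 18175, 636 of 17738 and 269 of 18058 genes were called in the same direction. Transcript levels do not report the phosphorylation through which many of these regulators act.

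**Figure D5:**
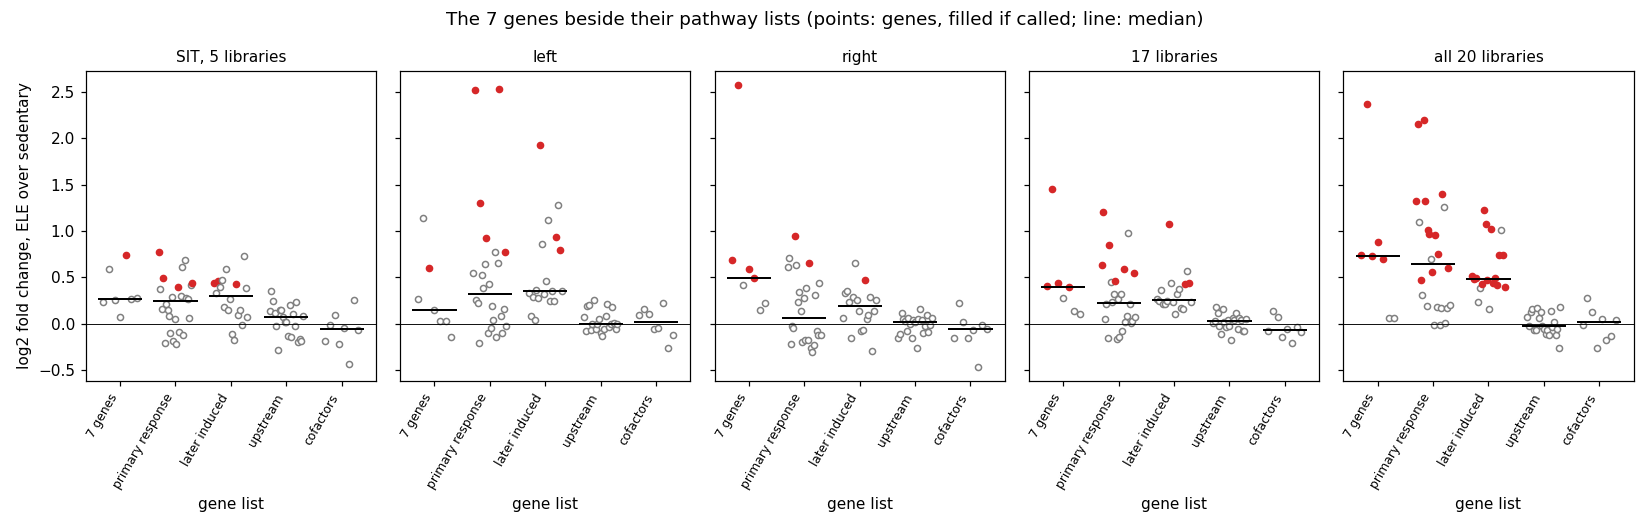
Log2 fold change of ELE over sedentary mice (vertical axis) for the 7 genes and 4 lists in 5 comparisons; points are genes, filled red where called, and lines are medians. The called genes lie among the members, the other primary response genes and the later genes, with 0 among upstream regulators and cofactors in each of the 5 panels.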

How the data were processed

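The authors aligned reads to GRCm38.p6 with STAR 2.7.3a, removed duplicates with Picard 1.87 and deposited whole-number counts, not normalized, of the read pairs that fell on exons of a gene on its own strand. Strand-aware counting separates a gene from its antisense partner, and removing duplicates lowers counts of abundant short transcripts. The 20 columns are named by mouse number and were given to groups by the isolation table of the paper, not to single samples. A table of wild-type hippocampus, with 24 columns that matched no label, was not used. Symbols, coordinates and exon lengths are from the GENCODE annotation of GRCm38.

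From these counts, TMM factors, filterByExpr and the quasi-likelihood test of edgeR 4.0.16 (R 4.3.3) gave log2 fold changes, with Benjamini-Hochberg adjustment over all genes tested. The standard error is the absolute log2 fold change divided by the square root of F. Levels are CPM with TMM factors over 20 libraries, and log2 CPM has a pseudocount of 0.5. Single genes were compared by two-sided exact permutation over libraries. The libraries of the 5-library SIT comparison were identified from mean normalized counts that the paper lists (633 of 633 genes matched). The steps were tested on simulated counts. DESeq2 1.42.0, other size factors, no filter, leaving out each library and other selections of libraries were alternatives. Members and lists were chosen with earlier results of these data known. Named genes were the members, up to 3 called genes per list and comparison with the smallest p, and the genes with the highest r. Genes named to describe NT6.304 and TG9.1.4 were chosen after their values were seen. Counts limit precision for Egr2, with 11 to 2520 read pairs per library, more than for the other members, and p-values measure the spread between mice.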

Additional observations from a re-analysis of the deposited data

Results flagged for a closer look

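In the SIT ELE group of 4 libraries, NT6.304 was far above the rest for Egr4 and Egr3. Its gap to the next library took up 0.972 of the range of log2 CPM for Egr4 and 0.876 for Egr3, above Dixon's critical value for 4 samples. For Egr4 the other 3 libraries lay between 46.1 and 48.7 CPM and NT6.304 was at 314 CPM, and for Egr3 they lay between 178 and 209 CPM and NT6.304 at 657 CPM. Chance gives such a gap in about 1 of 20 groups, and 14 groups were examined.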

How the results depend on the processing

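The number of the 7 genes called higher in the 5-library SIT comparison was 1, and it was 5 with all 8 libraries, 5 within the mice numbered NT6, 2 with all but NT6.304 (added after seeing the data) and 1 to 3 on leaving out 1 library in turn. On the left it was 1, 2 without a filter on low counts and 0 to 2 on leaving out 1 library, and Egr3 lost its call without TG9.1.4, TG7.3.4, TG9.1.2 or TG9.2.4. On the right it was 4, with 2 to 5 on leaving out 1 library, the 2 arising without TG9.1.3 or TG9.1.1. Over 20 libraries it was 5, with 4 to 5. The hemisphere interaction was called for 0 members and for 3 without a filter, Nr4a1, Egr1 and Egr4. In the left comparison DESeq2 called Egr2 in place of Egr3. Counts of all genes called moved from 665 in SIT to 1350 with 8 libraries, 1179 within NT6 mice, 1261 without NT6.304 and 355 to 1086 on leaving out 1 library. They moved from 367 on the left to 552 with DESeq2, 691 without a filter and 220 to 945, from 347 on the right to 715 without a filter and 308 to 643, from 833 over 20 libraries to 1997 without a filter, 519 over 17 libraries and 614 to 1158, and from 414 for the interaction to 1041 without a filter. The cause of these shifts was not tested, beyond the libraries and genes that each setting removes.

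The following log2 fold changes changed sign. Within NT6 mice, Nr4a2 was at -0.003 and Nr4a3 at -0.0282. On leaving out 1 library, the SIT values ranged from -0.0621 to 0.42 for Egr1, -0.68 to 1.03 for Egr2 and -0.0291 to 0.18 for Egr4, the left values from -0.0876 to 0.0991 for Nr4a1, -0.0607 to 0.18 for Nr4a2 and -0.24 to 0.0225 for Nr4a3, the right values from -0.0321 to 0.30 for Nr4a2, and those over 20 libraries from -0.0157 to 0.15 for Nr4a2 and -0.0266 to 0.15 for Nr4a3. Of 483 gene values under an alternative, 430 kept their direction and side of the threshold. The median r over all pairs was 0.79, and between 0.63 and 0.79 under 5 alternatives, but 0.91 within the 8 SIT and 0.58 within the 12 separately isolated libraries. The calls of single genes over 20 libraries were not changed by size factors, mitochondrial genes left out, the threshold or DESeq2.

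The first part of the mouse number was fitted as a replicate block. Libraries of the same hemisphere and prefix deviated together only in part, with a correlation of 0.18, 0.016 and 0.10 on the left and 0.21, -0.069 and -0.090 on the right, so the number was not taken as a pairing. In SIT the block compares NT6.303 alone with 2 sedentary mice, so only log2 fold changes are given. They were 1.09 for Nr4a1, 0.56 for Nr4a2, 0.58 for Nr4a3, 0.70 for Egr1, 1.70 for Egr2, 0.35 for Egr3 and 0.10 for Egr4. With the block, 1 member was called on the left, where 314 of 17750 genes were called in either direction. On the right 3 were (Nr4a1 lost its call at 0.48), where 301 of 17570 genes were. Over 20 libraries 5 members were called, the same number as without the block, and 0 for the interaction. The block for the interaction was added after seeing the data.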
